A study of Homo sapiens with 6 samples.

Results

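The genes described here encode secreted products of mucosal surfaces: the club cell protein SCGB1A1, the protease inhibitors PI3 and SLPI, the related protein WFDC2, the siderophore-binding protein LCN2, the BPI-fold protein BPIFB1 and the immunoglobulin transporter PIGR. They were chosen by symbol from the counts of sorted L3.6pl cells, with the differences between the sorted populations already known and SCGB1A1 among the largest of them, so their differences are given as a description and not as a test. Of the 7 genes, 6 were measured among the 19469 genes of the table, and PIGR was not analysed here. L3.6pl is an established human line of metastatic pancreatic ductal adenocarcinoma (PDAC), given as adenosquamous, grown in DMEM with serum and not treated. By FACS on surface L1CAM, its cells were sorted into L1CAM_POSITIVE (L1high) and L1CAM_NEGATIVE (L1low) populations, and mRNA was sequenced in 3 libraries of each. The sample titles write the line as L3_6PL and the cell line labels as L6.6pl. All values therefore come from 1 cell line. The paper says in general that sorting experiments were independently repeated, but no source ties these libraries to separate cultures or sorts. The spread between the replicates may therefore be technical. Counting every library, total counts ran from 16334610 to 21064685.

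In airway, intestine and other mucosal epithelia, products of this kind coat the surface. Some bind bacteria or their iron carriers, some block the elastase and related proteases that neutrophils release, and PIGR carries polymeric IgA and IgM across the cell. Many of them are induced by inflammatory signals through NF-kB and C/EBP factors, and several, LCN2 and SLPI among them, are known from carcinomas, including those of the pancreas.

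The sort was seen in the sorting marker. L1CAM (ENSG00000198910) stood at 84.0, 69.8 and 89.5 CPM (counts relative to the library total, scaled by TMM factors) in L1high replicates 1, 2 and 3 and averaged 20.5 ± 3.01 CPM (SD, n = 3) in L1low cells. Its log2 fold change was -1.99, with a standard error of 0.12 and an adjusted p of 4.7e-06 by the quasi-likelihood test of edgeR. A negative log2 fold change means lower in L1low cells throughout. Epithelial markers (EPCAM, CDH1, KRT8, KRT18 and KRT19) were all measured and summed to between 2700 and 3070 CPM in L1high and between 3050 and 3230 CPM in L1low libraries, and the 5 basal or squamous markers to between 4210 and 4280 and between 4520 and 4710 CPM. Single markers within these sums moved in opposite directions: KRT19 (log2 fold change 0.63), KRT14 (0.46) and TP63 (1.12) were called higher in L1low cells, and EPCAM (-0.30) and KRT6A (-0.59) were called lower, EPCAM with an adjusted p that rounds to 0.05. None of the 4 airway club cell markers other than SCGB1A1 (SCGB3A1, SCGB3A2, CYP2F1 and BPIFA1) and none of the 6 neutrophil markers, ELANE and MPO among them, was among the genes measured. All 3 airway ciliated cell markers (FOXJ1, TPPP3 and DNAH5) were measured, and none was called. They summed to between 23.8 and 24.8 CPM in L1high and between 21.2 and 22.5 CPM in L1low libraries, most of it TPPP3. Of 5 leukocyte markers only ITGAX was measured (11.3 to 15.2 CPM in L1high and 6.21 to 7.65 CPM in L1low libraries), and of 5 fibroblast markers only LUM, which summed to between 78.1 and 89.8 CPM in L1high and between 129 and 150 CPM in L1low libraries. PTPRC, CD14 and PDGFRB were not among the genes measured. Of 3 pancreatic duct markers SOX9 alone was measured (27.9 to 31.4 CPM in L1high and 13.6 to 17.3 CPM in L1low libraries), and none of the acinar or endocrine markers was. ITGAX and SOX9 were called lower and LUM higher in L1low cells. The part of these 8 called markers in the values given next was not tested. In bulk RNA, fewer cells that express a gene and less of its RNA per cell cannot be told apart.

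SCGB1A1 (ENSG00000149021, GRCh38 chromosome 11, 62405103 to 62423195, plus strand) encodes uteroglobin, the small secreted protein that marks club cells of the airway. It had 424, 432 and 348 counts in L1high replicates 1, 2 and 3 and 69, 47 and 83 counts in the L1low replicates, the latter at 3.80, 2.62 and 4.69 CPM. The highest L1low library thus lay far below the lowest L1high library. The means were 20.7 ± 0.657 CPM in L1high and 3.70 ± 1.04 CPM in L1low cells (SD, n = 3 each), 5.6-fold higher in L1high, with a log2 fold change of -2.48 (standard error 0.17). Among the 637 genes called lower in L1low cells at an average log2 CPM of at least 1, this was the difference of rank 2 in size. The L1high libraries were close to each other, with a coefficient of variation of 3.17%, against 28.0% in the L1low libraries, where the counts were few.

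The lncRNA gene ENSG00000255446 lies across the end of SCGB1A1 on the opposite strand, from 62421845 to 62426724. Its exons share 96 bases with those of SCGB1A1, out of 510 bases of its own and 584 of SCGB1A1. It had 288, 266 and 235 counts in the L1high and 49, 33 and 59 counts in the L1low libraries, with a log2 fold change of -2.37 (standard error 0.18). For each 100 counts of SCGB1A1 it had from 61.6 to 67.9 counts in L1high and from 70.2 to 71.1 in L1low libraries. The pair thus kept a similar ratio in all libraries, somewhat higher in every L1low than in any L1high library. The libraries were stranded, but whether the counting used strand is not given in the sources used here, and without it reads in the stretch that the pair shares cannot be told apart.

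PI3 (ENSG00000124102, chromosome 20, 45174902 to 45176544, plus strand) encodes elafin, an inhibitor of neutrophil elastase and proteinase 3 that transglutaminases anchor to the matrix. Its counts were 1410, 1536 and 1075 in L1high and 518, 510 and 486 in L1low libraries, which is 66.5, 74.8 and 65.5 CPM against 28.5, 28.4 and 27.4 CPM. Every L1low library was below every L1high library, and the L1low values lay within about 1 CPM of each other. The means were 68.9 ± 5.10 CPM in L1high and 28.1 ± 0.590 CPM in L1low cells (SD, n = 3 each), 2.45-fold higher in L1high, with a log2 fold change of -1.29 (standard error 0.08).

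SLPI (ENSG00000124107, chromosome 20, 45252239 to 45254564, minus strand) encodes the secretory leukocyte peptidase inhibitor, which blocks elastase and cathepsin G and also kills bacteria. It was the most abundant of these transcripts, with 7809, 7519 and 6276 counts in L1high and 3994, 3860 and 4833 counts in L1low libraries. These are 368, 366 and 382 CPM in L1high replicates 1, 2 and 3 and 220, 215 and 273 CPM in the L1low replicates. The groups did not overlap, and L1low replicate 3 was nearest to the L1high libraries. The means were 372 ± 8.86 CPM in L1high and 236 ± 32.1 CPM in L1low cells (SD, n = 3 each), 1.58-fold higher in L1high, with a log2 fold change of -0.66 (standard error 0.09).

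LCN2 (ENSG00000148346, chromosome 9, 128149071 to 128153453, plus strand) encodes lipocalin 2, which holds the siderophores that bacteria use to take up iron. It had 296, 338 and 289 counts in L1high and 178, 185 and 225 counts in L1low libraries, or 14.0, 16.5 and 17.6 CPM against 9.80, 10.3 and 12.7 CPM. The groups did not overlap, but L1low replicate 3 and L1high replicate 1 were near each other. The means were 16.0 ± 1.87 and 10.9 ± 1.55 CPM (SD, n = 3 each), 1.46-fold higher in L1high, with a log2 fold change of -0.55 (standard error 0.13).

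WFDC2 (ENSG00000101443, chromosome 20, 45469753 to 45481532, plus strand) encodes HE4, a secreted protein with WAP domains like those of PI3 and SLPI that serves as a serum marker of ovarian carcinoma. It went the other way. Its counts of 449, 468 and 371 in L1high and 468, 454 and 513 in L1low libraries are 21.2, 22.8 and 22.6 CPM against 25.8, 25.3 and 29.0 CPM, and the groups did not overlap. The means were 22.2 ± 0.886 CPM in L1high and 26.7 ± 2.00 CPM in L1low cells (SD, n = 3 each), with a log2 fold change of 0.27 (standard error 0.09) that did not pass the threshold of an adjusted p under 0.05 over all genes.

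BPIFB1 (ENSG00000125999, chromosome 20, 33273480 to 33309871, plus strand) encodes a secreted protein of the upper airway in the family of the bactericidal permeability-increasing protein. It was near the lower limit of the table, with 48, 37 and 21 counts in L1high and 45, 31 and 40 counts in L1low libraries. These are 2.26, 1.80 and 1.28 CPM against 2.48, 1.73 and 2.26 CPM, and the groups overlapped. Its log2 fold change was 0.26 (standard error 0.26), so a difference of this size could not be told from none at this depth.

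**Figure D1:**
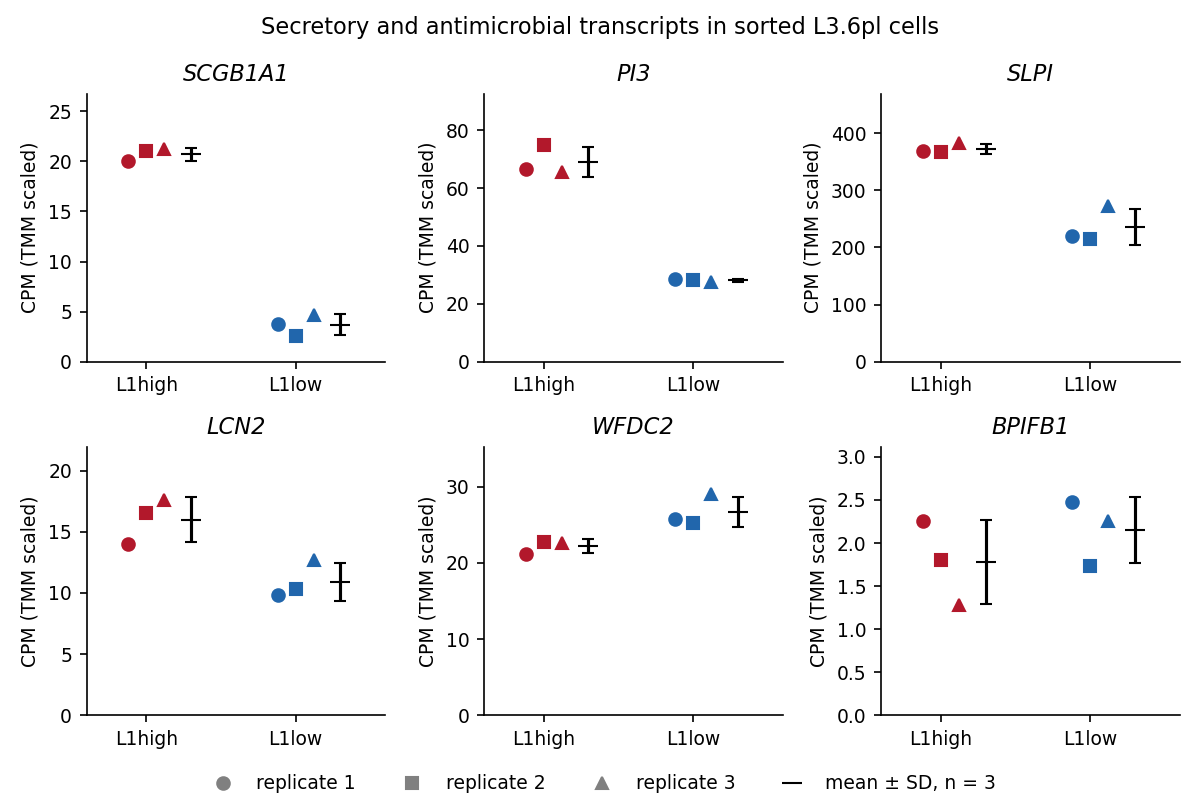
TMM-scaled CPM of the 6 measured genes in each library, with the replicate shown by the shape of the symbol and the mean ± SD (n = 3) beside each group; each vertical axis starts at 0 and has its own scale. SCGB1A1, PI3, SLPI and LCN2 are lower in every L1low library than in any L1high library, WFDC2 is higher, and BPIFB1 overlaps.

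Read together, 4 of the 6 measured genes had an adjusted p under 0.05 and were lower in L1low cells, where 3.37% of the 19467 genes tested did so, and none was called higher, where 4.58% did. In 4 of the 6 every L1low library lay below every L1high library, as in 13.7% of all genes, and in 1 every L1low library lay above, as in 15.2% of all genes. The genes were put together with these differences known, so nothing is read from these counts. Their median log2 fold change was -0.60, beside a median of -0.0087 over all genes tested. Single libraries decided the call of LCN2. On the log2 scale it stood at -0.52 when L1high replicate 2 was left out, at -0.47 without replicate 3 of L1high, at -0.47 without replicate 1 of L1low and at -0.51 without replicate 2 of L1low, and in each of these fits SCGB1A1, PI3 and SLPI were called, 3 of the 6, and LCN2 was not.

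**Figure D2:**
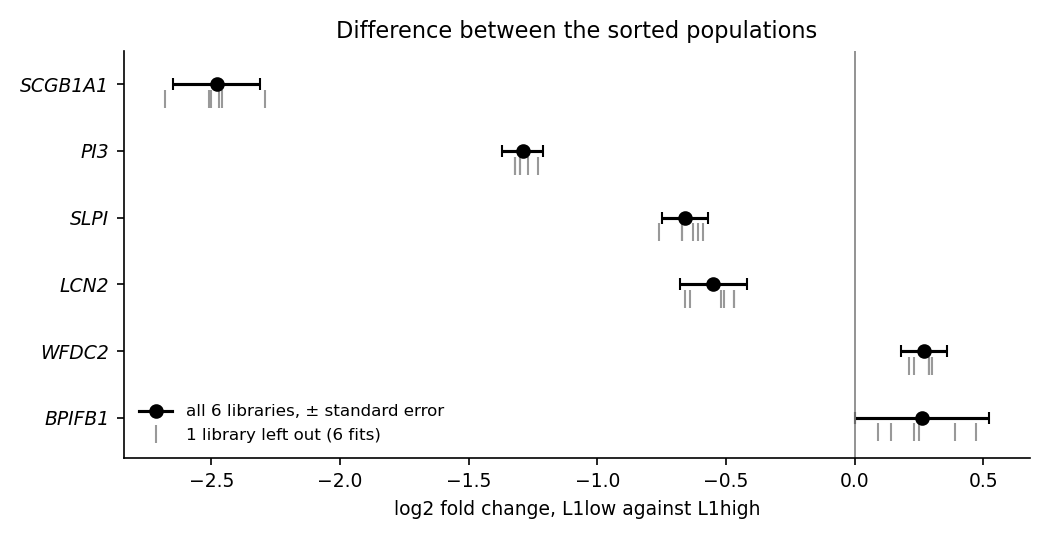
Log2 fold change of L1low against L1high cells for each measured gene, as a point with its standard error over all 6 libraries, and as grey ticks for the 6 fits that each left out 1 library. The points run from -2.48 for SCGB1A1 to 0.27 for WFDC2, and no tick changes the sign of its gene.

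The genes did not differ by the same factor, which their counts show within each library without any scaling. For each 100 counts of SLPI, SCGB1A1 had 5.43, 5.75 and 5.54 counts in L1high replicates 1, 2 and 3 and 1.73, 1.22 and 1.72 counts in the L1low replicates. PI3 had 18.1, 20.4 and 17.1 in L1high and from 10.1 to 13.2 in L1low libraries. SCGB1A1 and PI3 thus differed by more than SLPI did in every library, and SCGB1A1 by more than PI3, with 30.1, 28.1 and 32.4 counts for each 100 of PI3 in L1high and 13.3, 9.22 and 17.1 in L1low libraries. LCN2 had 3.79, 4.50 and 4.60 counts for each 100 of SLPI in L1high and 4.46, 4.79 and 4.66 in L1low libraries, so that the groups overlapped and the pair kept a similar ratio. WFDC2 had 5.75, 6.22 and 5.91 against 11.7, 11.8 and 10.6 counts for each 100 of SLPI. Summed, the 6 genes came to 495, 503 and 513 unscaled CPM in L1high and 292, 283 and 344 in L1low libraries, most of it SLPI.

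Levels between genes were compared as TMM-scaled CPM per kilobase of exon. In L1high cells the order was SLPI (624 ± 14.9, SD, n = 3), PI3 (125 ± 9.26), SCGB1A1 (35.5 ± 1.12), WFDC2 (16.6 ± 0.664), LCN2 (10.0 ± 1.17) and BPIFB1 (0.591 ± 0.163), and no pair of neighbours in it overlapped between libraries. In L1low cells it was SLPI (396 ± 53.9), PI3 (51.0 ± 1.07), WFDC2 (from 18.9 to 21.7), LCN2 (6.85 ± 0.973), SCGB1A1 (6.34 ± 1.78) and BPIFB1 (0.715 ± 0.128), where LCN2 and SCGB1A1 overlapped. SCGB1A1 was the gene that changed place, from above WFDC2 to level with LCN2. Among the genes with an annotated length, SLPI stood at percentile 99.5 of levels per kilobase in L1high and 99.1 in L1low cells, so it remained among the most abundant mRNAs of both populations. PI3 stood at percentile 97.1 and 92.8, SCGB1A1 at 89.4 and 56.3, and BPIFB1 at 9.76 and 11.6.

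**Figure D3:**
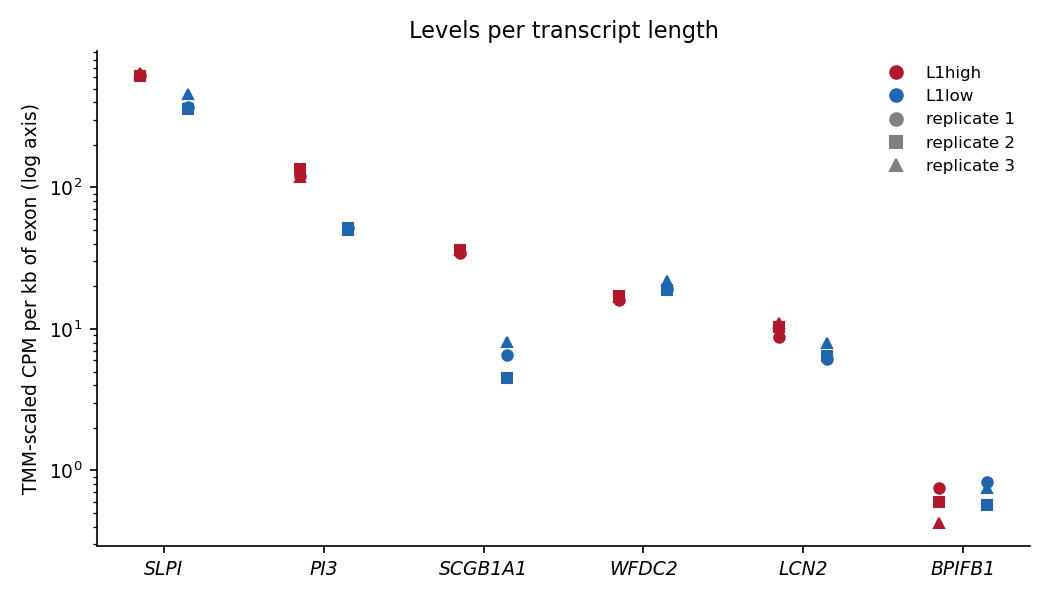
TMM-scaled CPM per kilobase of exon on a log axis for each library, with L1high in red and L1low in blue and the replicate shown by the shape of the symbol. SLPI is highest and BPIFB1 lowest in both groups, and SCGB1A1 drops from 35.5 to 6.34 on average.

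PI3, SLPI and WFDC2 lie in 1 cluster of WAP domain genes on the long arm of chromosome 20, a position that was not used to choose them. The starts of PI3 and SLPI are 79.7 kb apart, and that of WFDC2 is 215 kb from SLPI. Between SLPI and WFDC2 lie genes with other functions. SDC4, a heparan sulfate proteoglycan, had a log2 fold change of 0.15 (standard error 0.08). PIGT, of GPI anchor synthesis, stood at -0.09 (standard error 0.06). SYS1 stood at 0.27 (standard error 0.08), as WFDC2 did, and SYS1-DBNDD2 at -0.23 (standard error 0.08). ENSG00000275894 (0.40) and TP53TG5 (0.19) were low in CPM and had larger standard errors (0.36 and 0.33). None of these passed the threshold. DBNDD2 was called lower (log2 fold change -0.31, adjusted p = 0.044), but it shares sequence with the readthrough gene SYS1-DBNDD2, and it was not called without any of L1high replicates 1, 2 and 3 or L1low replicates 1 and 2 (adjusted p from 0.06 to 0.18). DBNDD2 was the sole gene other than PI3 and SLPI called in the region plotted.

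**Figure D4:**
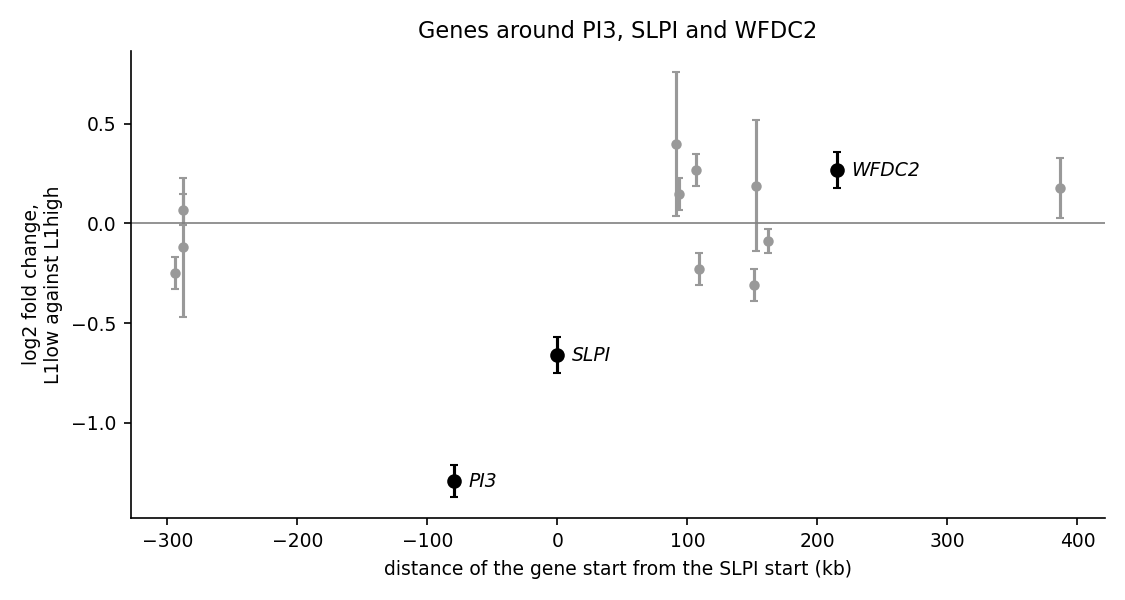
Log2 fold change of L1low against L1high with its standard error, over all 6 libraries, for the measured genes around PI3, SLPI and WFDC2, by the distance of their start from that of SLPI in kb along the chromosome. PI3 (-1.29) and SLPI (-0.66) lie below the other genes, which run from -0.31 to 0.40.

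Around all 7 genes, 59 other measured genes start within 250 kb. Over all genes tested, 4.58% were called higher and 3.37% lower in L1low cells. Of the 59 neighbours, 3 were called higher and 3 lower and 53 were not called, with a median log2 fold change of 0.02. Those called lower were ENSG00000255446, DBNDD2 and SLC27A4 near LCN2 (-0.43, adjusted p = 0.0087), a fatty acid transporter. Those called higher were AHNAK near SCGB1A1 (0.53, adjusted p = 0.004), a large scaffold protein, C1orf116 near PIGR (0.57, adjusted p = 0.00041) and GOLGA2 near LCN2 (0.32, adjusted p = 0.036), a Golgi matrix protein. SLC27A4 was not called without L1high replicate 1 or L1low replicate 2 (adjusted p from 0.061 to 0.065), and GOLGA2 not without L1high replicates 1 or 2 or L1low replicates 2 or 3 (adjusted p from 0.072 to 0.17).

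Promoter sequences from RefSeq (GRCh38.p14) were matched for 4 of the 7 genes, PIGR, LCN2, BPIFB1 and WFDC2, and not for SCGB1A1, PI3 and SLPI. The 250 bases before the start are shown for LCN2, which was lower in L1low cells, and for WFDC2, which was not, both on the plus strand, at chr9:128149203-128149452 and chr20:45469503-45469752. Capitals mark matches to the motifs searched on both strands.
LCN2: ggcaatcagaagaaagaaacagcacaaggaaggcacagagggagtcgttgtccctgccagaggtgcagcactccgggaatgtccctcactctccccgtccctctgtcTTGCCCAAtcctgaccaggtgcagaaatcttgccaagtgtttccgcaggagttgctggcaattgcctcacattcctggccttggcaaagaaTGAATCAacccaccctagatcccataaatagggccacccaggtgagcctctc
WFDC2: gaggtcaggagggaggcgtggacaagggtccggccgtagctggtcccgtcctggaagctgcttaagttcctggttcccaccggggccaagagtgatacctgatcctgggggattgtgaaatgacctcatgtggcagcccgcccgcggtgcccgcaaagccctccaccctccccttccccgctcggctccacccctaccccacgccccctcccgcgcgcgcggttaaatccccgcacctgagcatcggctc
In LCN2 the AP-1 motif TGANTCA began 52 bases and the C/EBP motif TTNNGCAA, on the opposite strand, 143 bases before the RefSeq start, which lies inside the gene span given above, and these did not overlap. Over 35116 promoters, 6.57% held the AP-1 and 9.05% the C/EBP motif. None of the 4 held the NF-kB motif GGNNTTTCC (5.48% of all promoters), the FOXA motif TGTTTAC (2.98%) or TATAAA (10.7%). The WFDC2, PIGR and BPIFB1 windows held none of the 5 motifs. In all 4 windows, that of LCN2 included, this says only that these letters are not there. Sites of the same factors written with other letters were not searched for. GC content was 54.8% in the LCN2 and 67.2% in the WFDC2 window.

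The closest relatives of these genes were mostly not among the genes measured. Of 17 WAP domain and neighbouring inhibitor genes 2 were measured, of which ANOS1 was called higher (log2 fold change 0.65, adjusted p = 0.0073) and WFIKKN1 was not called (0.25, adjusted p = 0.61). Of 22 secretoglobin and BPI-fold genes 3 were measured and none was called, with PLTP, a phospholipid transfer protein of the same fold, at 154 ± 8.31 CPM in L1high and 170 ± 5.42 CPM in L1low cells (SD, n = 3) and BPIFB4 at 1.18 ± 0.247 and 0.762 ± 0.0340 CPM. Of 20 lipocalin genes and LCN2 receptors 4 were measured and none was called. The receptor SLC22A17 stood at 0.52 on the log2 scale (adjusted p = 0.11) and LRP2, the endocytic receptor megalin, at 0.50 (adjusted p = 0.19). The secretoglobins SCGB3A1 and SCGB3A2 were not among them.

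Antimicrobial peptides and proteins moved both ways. Of 36 on the list, 12 were measured, 4 were called lower and 2 higher in L1low cells. The median log2 fold change was -0.32. DMBT1, a scavenger receptor protein of mucus that binds bacteria, fell from 419 ± 32.4 to 198 ± 4.40 CPM (SD, n = 3), a log2 fold change of -1.08 (adjusted p = 4.7e-06). S100A9, a subunit of calprotectin, which withholds metals from microbes, fell from 167 ± 9.81 to 83.9 ± 6.76 CPM (log2 fold change -0.99, adjusted p = 1.5e-05), and its partner S100A8 and the chitinase-like CHI3L1, named after their values were seen, were the other genes called lower (-0.86 and -0.61). The chemokine CXCL14 rose from 3.76 ± 0.289 to 9.42 ± 0.529 CPM (log2 fold change 1.32, adjusted p = 0.00011) and ADM, adrenomedullin, from 31.9 ± 1.69 to 58.5 ± 3.03 CPM (0.88, adjusted p = 5.7e-05). CCL20 (-0.14, adjusted p = 0.59) and RNASE4 (0.09, adjusted p = 0.71) were not called.

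Airway and glandular secretory genes gave 13 measured of 30, of which 1 was called lower and 2 higher, with a median log2 fold change of 0.16. The membrane mucin MUC16 fell from 42.9 ± 4.41 to 14.6 ± 1.23 CPM (SD, n = 3, log2 fold change -1.55, adjusted p = 6.3e-06). Ceruloplasmin (CP), a copper-binding secreted protein, rose from 52.1 ± 5.33 to 112 ± 5.07 CPM (1.10, adjusted p = 1.4e-05), and ALDH3A1, an aldehyde dehydrogenase, from 149 ± 6.47 to 285 ± 5.24 CPM (0.93, adjusted p = 4.9e-06). KRT7 (0.16, adjusted p = 0.14) and MUC1 (0.19, adjusted p = 0.13) were not called. For transport of immunoglobulin by PIGR, 9 of 13 genes were measured and none was called, with RAB11A at -0.09 (adjusted p = 0.50) and MAL2 at -0.39 (standard error 0.16, adjusted p = 0.15), the latter called only without L1high replicate 3 (-0.52, adjusted p = 0.039) or with the replicate number as a block (-0.40, adjusted p = 0.0013).

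**Figure D5:**
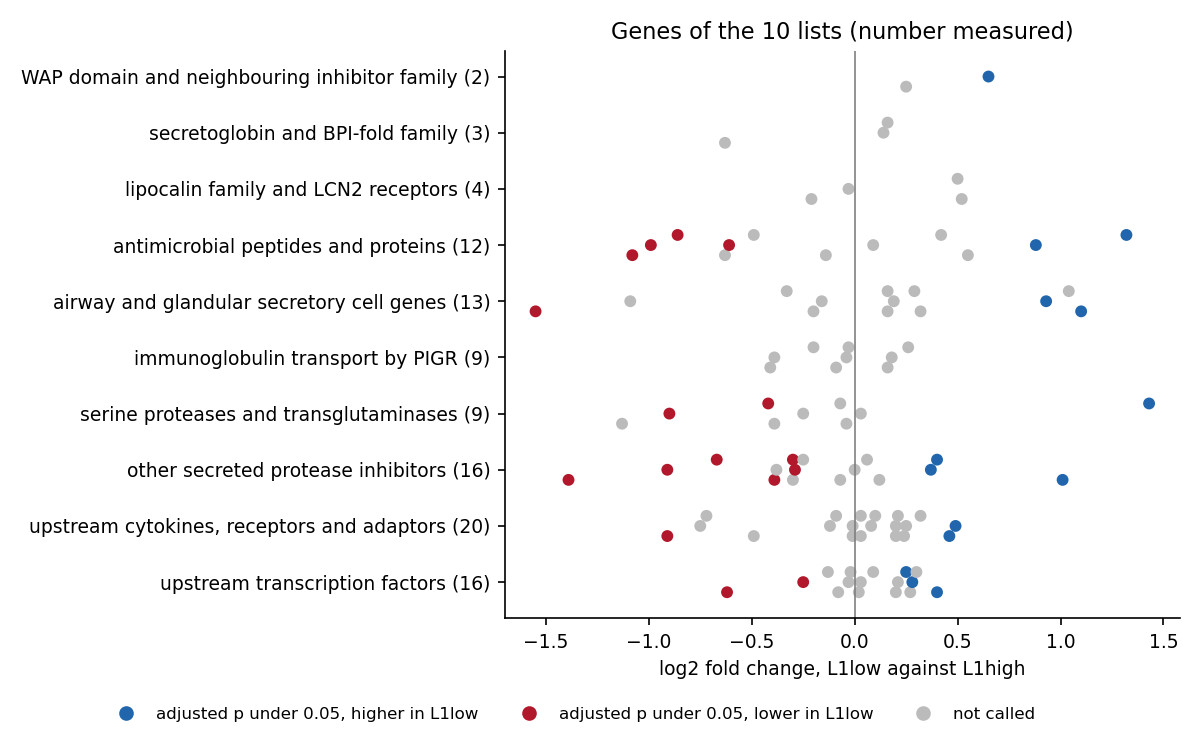
Log2 fold change of L1low against L1high for each measured gene of the 10 lists, 1 point a gene, in blue where called higher and red where called lower in L1low cells at an adjusted p under 0.05, and in grey where not called; the number measured stands after each list name. Called genes lie on both sides of 0 in 6 lists, those of antimicrobial proteins, secretory cell genes, proteases, other inhibitors, cytokines and receptors, and transcription factors.

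The targets and partners of the protease inhibitors were looked at next. Of 24 serine proteases and transglutaminases 9 were measured, and the neutrophil proteases ELANE, PRTN3 and CTSG that PI3 and SLPI block were not among them. TGM1, a transglutaminase of the cornified envelope, rose from 16.5 ± 1.75 to 44.5 ± 3.66 CPM (SD, n = 3, log2 fold change 1.43, adjusted p = 9.3e-06), whereas TGM2 had a log2 fold change of -0.07 (adjusted p = 0.73). The kallikrein KLK10 fell from 15.6 ± 2.36 to 8.37 ± 1.10 CPM (-0.90, adjusted p = 0.0028), and prostasin (PRSS8) fell by 0.42 on the log2 scale (adjusted p = 0.0075). Without L1high replicate 1, PRSS8 was not called (-0.39, adjusted p = 0.058). The matriptase gene ST14 was not called (-0.25, adjusted p = 0.14), except without L1high replicate 2 (-0.33, adjusted p = 0.046).

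Among other protease inhibitors, 16 of 24 were measured, 6 were called lower and 3 higher, with a median log2 fold change of -0.27. SPINK6, an inhibitor of kallikreins, fell from 9.80 ± 0.997 to 3.74 ± 0.589 CPM (SD, n = 3, log2 fold change -1.39, adjusted p = 0.00023). SERPINB1, another inhibitor of neutrophil elastase, fell from 334 ± 17.1 to 178 ± 6.68 CPM (-0.91, adjusted p = 7.7e-06). Both TFPI2 (-0.67, adjusted p = 0.042) and TIMP3 (1.01, adjusted p = 0.026) were called on few counts. TFPI2 was called in none of the 6 fits that left out 1 library (adjusted p from 0.051 to 0.14), and TIMP3 only in that without L1low replicate 3 (otherwise from 0.054 to 0.11). SPINT2 (0.06, adjusted p = 0.68) and cystatin C (CST3, 0.00, adjusted p = 0.98) were abundant and not called.

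Signals and factors known to act on such genes came next. Of 25 cytokines, receptors and adaptors 20 were measured, 1 was called lower and 2 higher, with a median log2 fold change of 0.05. The cytokine IL6 fell from 4.14 ± 0.296 to 2.21 ± 0.162 CPM (SD, n = 3, log2 fold change -0.91, adjusted p = 0.0088). IL1RAP, a chain of the interleukin 1 receptor, stood at 0.49 (adjusted p = 0.025) and IL6R at 0.46 (adjusted p = 0.033). Without L1high replicates 1 or 3 or L1low replicates 1 or 2, IL1RAP was not called (adjusted p from 0.052 to 0.14), and IL6R was called in 1 of the 6 fits that left out a library, that without L1high replicate 3 (otherwise from 0.055 to 0.16). OSMR (0.20, adjusted p = 0.091) and IL4R (0.03, adjusted p = 0.85) were not called.

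Of 21 transcription factors 16 were measured, 3 were called higher and 2 lower, with a median log2 fold change of 0.06. CEBPA, a C/EBP factor of differentiated epithelia, fell from 13.2 ± 0.918 to 8.62 ± 0.509 CPM (SD, n = 3, log2 fold change -0.62, adjusted p = 0.0071), though it was not called without L1high replicate 1 (-0.57, adjusted p = 0.054). ELF3, an epithelial ETS factor, rose from 263 ± 24.0 to 347 ± 17.9 CPM (0.40, adjusted p = 0.0083), though it was not called without L1low replicate 2 (0.39, adjusted p = 0.061). STAT6 (0.28, adjusted p = 0.018) was not called without L1high replicate 1 or L1low replicate 2 (adjusted p from 0.086 to 0.10), and the NF-kB subunit RELA (0.25, adjusted p = 0.040) was called without L1high replicate 3 but in no other fit that left out a library (adjusted p from 0.07 to 0.18). KLF5 (0.02, adjusted p = 0.92) and STAT3 (0.03, adjusted p = 0.82) were not called. XBP1 and NKX2-1 were named after their values were seen. XBP1 was the other factor called lower (log2 fold change -0.25, adjusted p = 0.047), close to the threshold. NKX2-1 is the lung and thyroid factor that acts at the SCGB1A1 promoter in airway cells. It had 161, 211 and 137 counts in L1high and 177, 213 and 179 counts in L1low libraries, and was not called (log2 fold change 0.27, adjusted p = 0.28). Whether it bears on SCGB1A1 in these cells was not tested.

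Over the 10 lists, each gene counted once, 104 of 232 genes were measured, of which 16 (15.4%) were called lower and 14 (13.5%) higher, with a median log2 fold change of 0.00. The shares among all genes tested were the 3.37% and 4.58% given above. The lists were drawn up with earlier results of these data known, so nothing is read from the difference between these shares.

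Profiles over the 6 libraries were taken as log2 CPM about the mean of each gene, without scaling by their spread. By these, SCGB1A1 was nearest to ENSG00000255446 (root mean square difference 0.077), COL5A3 (0.304) and L1CAM (0.435), of 17101 genes compared. PI3 was nearest to SERPINB3 (0.05), NTS (0.076) and RARRES1 (0.082), and SLPI to DZIP1L (0.053), SCARNA12 (0.055) and BSPRY (0.057). LCN2 was nearest to PITPNC1 (0.06), CHN2 (0.077) and NQO2 (0.08), WFDC2 to PARD3 (0.016), GMPR2 (0.023) and NFIX (0.027), and BPIFB1 to ENSG00000284428 (0.077), ENSG00000271806 (0.09) and ZNF624 (0.115). These distances include the size of the difference between the groups, so a profile of the same shape but another size counts as far. Apart from its antisense partner, the genes nearest to SCGB1A1 lay farther from it than those named for the other genes did from theirs.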

How the data were processed

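RNA from 6 libraries of sorted L3.6pl cells was analysed. Libraries of mRNA were stranded. The authors placed reads on GRCh38 by BWA, which does not split reads at junctions, and used featureCounts for Ensembl genes. The submitters' processing notes also name DESeq2 and GRCh38.p13. The authors deposited raw read counts, not normalized. The strand and multi-mapping options are not given in the sources used here. Each of the 19469 genes was above 1 CPM in at least 2 libraries. Symbols and lengths came from GENCODE release 44, which matched 19344 genes.

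L1low and L1high were compared on these counts over all 6 libraries in R 4.3.3 with edgeR 4.0.16 (TMM factors, filterByExpr, quasi-likelihood test, Benjamini-Hochberg adjustment over 19467 genes, calls at an adjusted p under 0.05). All adjusted p-values are from this test unless said otherwise. Log2 CPM used a prior count of 2. The study's own table leaves out L1high replicate 3 without a stated reason, so that set was an alternative. The others were each library left out, DESeq2 1.42.0, a block for the replicate number, RLE, upper-quartile or library-size scaling, the edgeR exact test, no filter and at least 10 counts in every library. The fit was tested on simulated counts of 19469 genes, where it found 166 (83%) of 200 genes given a log2 change of 1 and made 181 calls, 15 of them (8.29%) on unchanged genes. No library pair was a duplicate (chi-square per degree of freedom at least 3.66).

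The members and lists were chosen with earlier results of these data known. In each list the text names up to 4 called genes with the largest change and up to 2 abundant genes not called, and for each member its called neighbours within 250 kb and its 3 nearest profiles. NKX2-1, XBP1, S100A8, CHI3L1 and the uncalled neighbours SDC4, PIGT, SYS1, SYS1-DBNDD2, ENSG00000275894 and TP53TG5 fall outside this rule. Protein sequences, planned as a description, were not analysed here.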

Additional observations from a re-analysis of the deposited data

How the results depend on the processing

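Over 14 alternative fits each, the log2 fold changes of SCGB1A1 (from -2.68 to -2.29), PI3 (from -1.32 to -1.23), SLPI (from -0.76 to -0.59), LCN2 (from -0.66 to -0.47), WFDC2 (from 0.21 to 0.30), BPIFB1 (from 0.09 to 0.47) and L1CAM (from -2.10 to -1.89) kept their sign. Over all genes 1548 were called. With 1 library left out, from 627 (without L1low replicate 2) to 1473 genes were called, from 393 to 859 higher and from 234 to 614 lower, and without L1high replicate 1 the number was 674. The same fits called from 7 to 13 list genes higher, from 9 to 15 lower and from 3 to 5 neighbouring genes. DESeq2 and the RLE, upper-quartile and library-size scalings moved the median log2 fold change of all genes by at most 0.011. The edgeR exact test called more genes than the main fit, 2075, of which 1145 were higher and 930 lower. The level order per kilobase was the same with the longest transcript as the length. Without adjustment 4541 genes had a p under 0.05.

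With the replicate number as a block, 2363 genes were called, 1143 of them lower, and the same 4 members. Deviations from the group means correlated by 0.117, 0.0967 and 0.292 for the same-numbered pairs 1, 2 and 3, and L1high replicate 2 correlated more with L1low replicate 1 (0.106) than with L1low replicate 2. Yet each L1low library correlated most with the L1high library of its own number. Replicate 3 of either group correlated negatively with the other numbers of the other group (from -0.198 to -0.146). Deviations cancel out within a group, so a positive pair brings negative values with it, and these are no separate observation. No source used here states that the numbers pair the samples, so the fit used throughout had no block. Whether same-numbered libraries shared a sort or batch was not tested. BPIFB1 had at most 48 counts in a library and a standard error of 0.26, against 0.09 both for WFDC2 and for SLPI, which had many more counts than WFDC2.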
